A study of Homo sapiens with 4 samples.

Results

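The Toll-like receptor and MYD88 group comprised 10 genes, fixed by name: the receptor genes TLR1, TLR6, TLR7, TLR8, TLR9 and TLR10, the adaptor gene MYD88, the kinase genes IRAK1 and IRAK4, and UNC93B1. An accessible interval was given to one of them when its midpoint lay inside the gene body, and otherwise when that gene had the nearest protein-coding gene end within 100 kb. By this rule 28 of 73135 intervals belonged to the group, and every one of the 10 genes held at least 1. TMD8, an established line of the activated B cell-like (ABC) type of diffuse large B cell lymphoma, was assayed by ATAC-seq, a method that marks open DNA with a transposase. There were 2 libraries with a short hairpin RNA against IRF4 (shIRF4) and 2 control libraries, which the series describes as carrying a scrambled hairpin. Whether the libraries of a group came from separate cultures is not given in the labels, so p-values measure the spread between these libraries, which may be technical.

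Toll-like receptors recognise microbial molecules. TLR1, TLR6 and TLR10 act at the cell surface, TLR1 and TLR6 as partners of TLR2, while TLR7 and TLR8 bind RNA and TLR9 binds unmethylated CpG DNA inside endosomes. UNC93B1 is the escort protein that carries the endosomal receptors out of the endoplasmic reticulum. Ligand-bound receptors recruit the adaptor MYD88, which assembles the kinases IRAK4 and IRAK1 and leads to NF-kB activation. Many ABC lymphomas depend on this route through activating MYD88 mutations. IRF4, the silenced gene, is a transcription factor of B and plasma cells, and in mouse cells its protein is known to bind MYD88.

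The total count over all intervals lay between 9112860 and 17954924 per library. Levels are CPM, read counts relative to library size and scaled with edgeR's TMM factors. An interval is called lower or higher when its adjusted p (edgeR quasi-likelihood test, Benjamini-Hochberg over all 73028 intervals tested) was below 0.05. Where groups are said not to overlap, the share of all intervals or genes that also separate was not counted. Summed over its 15 intervals, IRF4 lay at 306 and 276 CPM in shIRF4 and at 315 and 327 CPM in control (log2 fold change -0.14, adjusted p = 0.0916, edgeR), which does not measure its mRNA. Of the 5 T cell markers, CD2, CD3D and CD3G had no gene-end interval, and the list summed to 12.7 to 15.5 CPM in shIRF4 and 12.8 to 14.9 CPM in control. All 3 plasmacytoid dendritic cell markers had one, with 32.6 to 39.7 CPM in shIRF4 and 42.3 to 44.0 CPM in control. Of the 5 myeloid markers CSF1R, LYZ and MPO had none, and the list summed to 34.4 to 40 CPM in shIRF4 and 41.5 to 44.4 CPM in control. Of the 4 NK cell markers KLRD1, KLRF1 and NKG7 had none, and the list summed to 5.32 to 6.87 CPM in shIRF4 and 7.07 to 8.73 CPM in control. Of the 5 epithelial and fibroblast markers 1 had a gene-end interval, with 4.94 to 6.11 CPM in shIRF4 and 4.11 to 4.76 CPM in control. The dendritic, myeloid and NK lists lay lower in both shIRF4 libraries than in both control libraries, and their part in the results was not tested. The libraries come from a single established line, TMD8, and these sums over few genes do not measure how many cells of any kind were present.

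The start site of 4 genes lay inside an interval: TLR9, MYD88, IRAK4 and IRAK1. Their 250 bases before the start site are shown from RefSeq (GRCh38.p14, 5′ to 3′ on the gene's strand) because these are the promoters at which accessibility was read. TLR6 and TLR8 were also in the RefSeq promoter table, with no interval at their listed start, and TLR1, TLR7, TLR10 and UNC93B1 were not in it. Capitals mark matches, on either strand, to GAAANNGAA (core of the interferon response element), GGAANNGAA (core of the ETS-IRF composite element), TGANTCA (AP-1) and ATGCAAAT (octamer). The octamer was added after the sequences had been read.
TLR9, chr3:52225646-52225895, minus strand: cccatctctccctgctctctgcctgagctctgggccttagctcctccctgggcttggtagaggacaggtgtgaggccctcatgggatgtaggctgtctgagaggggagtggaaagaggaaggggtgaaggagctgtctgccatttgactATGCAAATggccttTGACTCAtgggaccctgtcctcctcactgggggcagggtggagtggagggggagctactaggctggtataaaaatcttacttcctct
MYD88, chr3:38138411-38138660, plus strand: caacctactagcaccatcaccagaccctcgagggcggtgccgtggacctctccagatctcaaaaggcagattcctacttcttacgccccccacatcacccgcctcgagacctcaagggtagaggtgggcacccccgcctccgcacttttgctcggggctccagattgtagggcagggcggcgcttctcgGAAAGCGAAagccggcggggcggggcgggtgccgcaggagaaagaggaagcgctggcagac
IRAK4, chr12:43758701-43758950, plus strand: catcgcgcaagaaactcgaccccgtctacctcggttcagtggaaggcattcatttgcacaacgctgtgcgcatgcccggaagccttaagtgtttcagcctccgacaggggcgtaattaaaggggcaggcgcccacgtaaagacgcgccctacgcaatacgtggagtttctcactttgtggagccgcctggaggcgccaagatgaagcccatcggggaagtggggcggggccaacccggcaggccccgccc
IRAK1, chrX:154019903-154020152, minus strand: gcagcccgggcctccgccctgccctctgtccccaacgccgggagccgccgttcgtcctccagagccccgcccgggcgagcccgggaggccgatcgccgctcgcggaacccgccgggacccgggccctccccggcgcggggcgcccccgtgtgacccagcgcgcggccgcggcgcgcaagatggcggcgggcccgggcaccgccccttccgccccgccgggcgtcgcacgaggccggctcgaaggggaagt
The MYD88 promoter held 1 match to the interferon response core, 61 to 53 bases before the start, a motif found in 6.88% of the 35116 promoters of the table over the same length. The TLR9 promoter held an AP-1 match 87 to 81 bases before the start (6.57% of promoters), which reads as a match on both strands, and an octamer match 101 to 94 bases before it (1.63% of promoters). No match to the ETS-IRF core was found in the 4 windows (6.58% of promoters), and IRAK4 and IRAK1 held none of the 4 motifs. A match is a description of the reference letters and does not show binding.

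Accessibility fell at 5 of the 28 intervals in shIRF4 and rose at 0. The 5 lay at TLR7 (2 intervals), TLR9 (2) and UNC93B1 (1), and the single TLR8 interval was not called. Among all tested intervals 22.8% were called, 15.5% lower and 7.26% higher, so the 17.9% of the group that fell is near the background share. At an unadjusted p below 0.05, 7 intervals of the group were lower and 0 higher, against 15338 lower and 9554 higher of all 73028 tested. DESeq2 called 2 lower and 0 higher in the group, against 3710 lower and 856 higher over all intervals. The median log2 fold change was -0.10 over the 28 intervals and 0.01 over all tested intervals. With libraries scaled by their totals alone, 9929 intervals were lower and 7176 higher across the genome, in place of 11347 and 5302 with TMM, while in the group 4 were lower and 0 higher. The interval lost from the group was that in the TLR9 body.

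**Figure D1:**
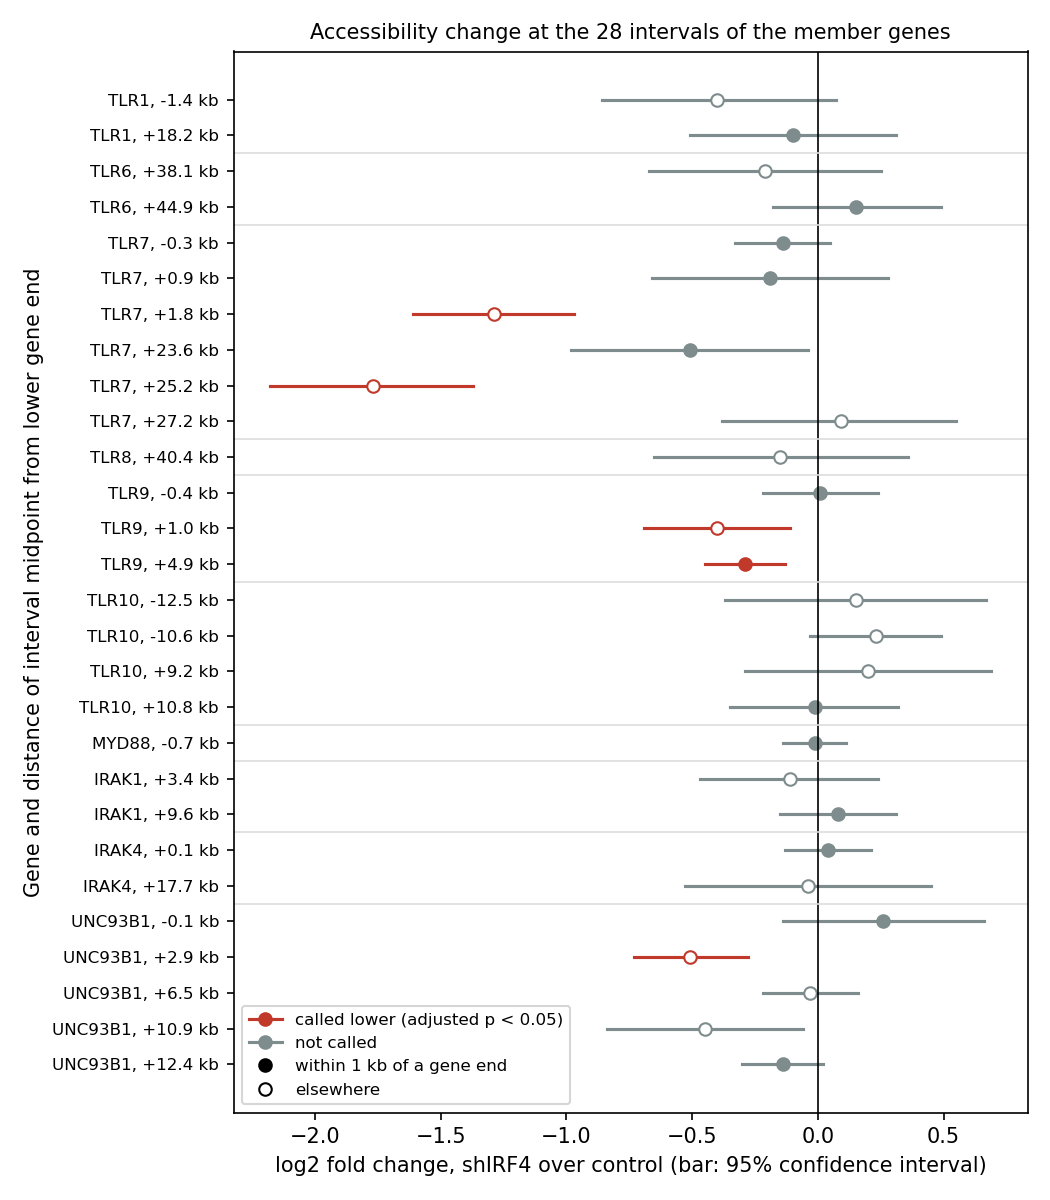
Log2 fold change of shIRF4 over control (x axis) with its 95% confidence interval at the 28 intervals (y axis), grouped by gene and named by the distance of the interval midpoint from the lower-coordinate end of the gene. Red marks the 5 intervals called lower, filled symbols those within 1 kb of a gene end; the 2 TLR7 intervals at -1.29 and -1.77 stand apart from all others, which lie between -0.51 and 0.26.

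Of the 5 lower intervals, 4 had their midpoint more than 1 kb from any protein-coding gene end. They still lay near an end of their gene: 1.8 kb inside and 1928 bp beyond at TLR7, and 2.9 kb inside at UNC93B1. The fourth, in the TLR9 body, was just past the cutoff at 1.0 kb. Within 1 kb of a gene end, 1 of 13 intervals of the group was lower, against 5.36% of all such intervals. Elsewhere, 4 of 15 were lower, against 17.7% of all such intervals. The intervals were 178 to 3618 bp long with a median of 544 bp, and their median level was 5.85 CPM, against 6.21 CPM over all tested intervals.

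TLR7, the endosomal receptor for single-stranded RNA, had the largest falls of the group on the log2 scale. Its gene lies on chromosome X at 12867072 to 12890361 and held 6 intervals. The interval 1928 bp beyond the upper end of the gene (12892017 to 12892561) lay at 2.28 and 2.73 CPM in shIRF4 and at 7.63 and 9.0 CPM in control. Both shIRF4 libraries were below both control libraries. The fold change was 3.42-fold downward (log2 -1.77, SE 0.20, 95% confidence interval -2.18 to -1.37, adjusted p = 7.11e-07, edgeR), and 0.541% of all tested intervals had a lower log2 fold change.

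A TLR7 interval inside the gene, with its midpoint 1.8 kb from the lower end (12868462 to 12869194), lay at 4.67 and 5.56 CPM in shIRF4 and at 13.4 and 11.2 CPM in control. Again the groups did not overlap. It fell 2.45-fold (log2 -1.29, SE 0.15, 95% confidence interval -1.61 to -0.97, adjusted p = 2.03e-06, edgeR). Per kb of interval, these intervals lay at 4.59 and 6.98 CPM in shIRF4, against 15.3 and 16.8 CPM in control, and the value of 4.59 was the lowest of the 28 intervals in shIRF4. Both calls held in DESeq2 and in every fit with 1 library left out.

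The remaining TLR7 intervals did not pass. At the lower end of the gene (12866257 to 12867232) the level was 22.6 and 20.3 CPM in shIRF4 and 23.9 and 23.8 CPM in control (log2 -0.14, SE 0.09, 95% confidence interval -0.33 to 0.05, adjusted p = 0.308, edgeR). Both shIRF4 libraries were below both control libraries by a margin that did not pass. This interval was the most accessible of the gene in CPM and per kb. A short interval between it and the body interval that fell (12867893 to 12868126) had 3.53 and 2.95 CPM in shIRF4 and 4.53 and 3.12 CPM in control. At the upper end (12890503 to 12890764) there were 2.50 and 2.95 CPM in shIRF4 and 4.19 and 3.42 CPM in control (log2 -0.51, 95% confidence interval -0.98 to -0.04, adjusted p = 0.110, edgeR). The interval 3879 bp beyond that end had 3.31 and 2.95 CPM in shIRF4 and 2.77 and 3.20 CPM in control. The groups overlapped at the short interval and at this last one, and not at the upper end. The confidence intervals of the 2 called intervals lie below that of the lower gene end, and the difference between intervals was not itself tested.

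**Figure D2:**
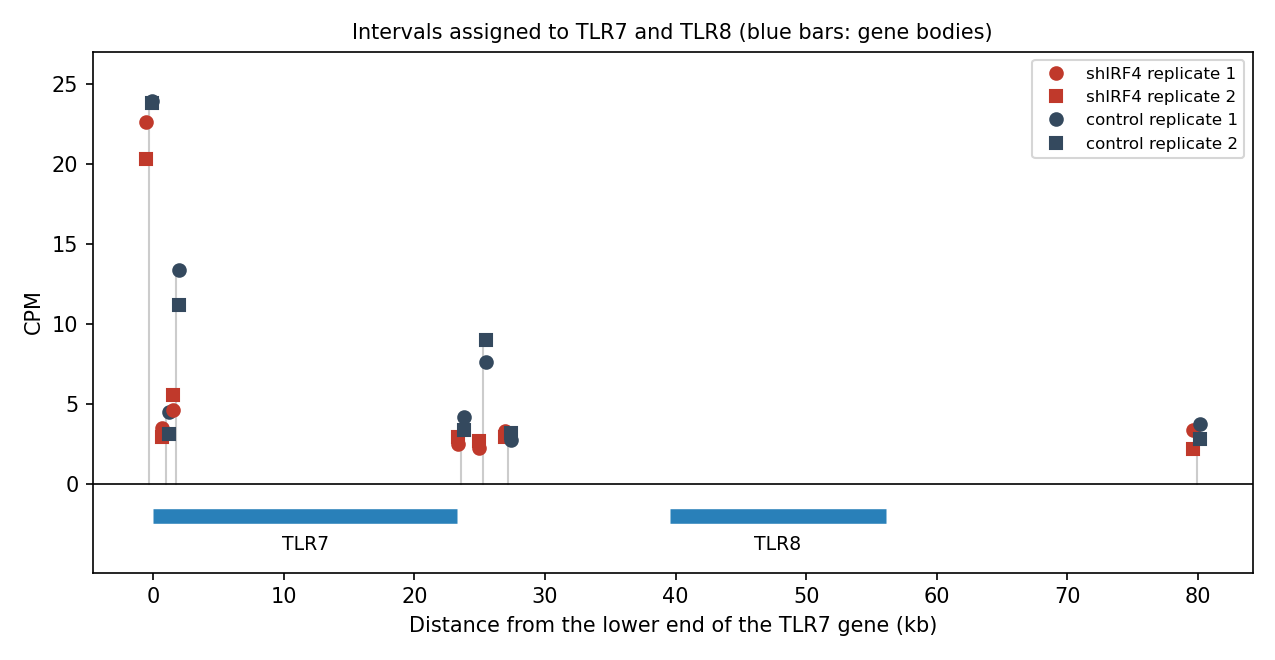
Level in CPM (y axis) of each interval assigned to TLR7 or TLR8 by its distance from the lower-coordinate end of TLR7 (x axis, kb), with shIRF4 libraries in red, control libraries in dark blue and gene bodies as blue bars. The intervals at 1.8 and 25.2 kb lie at 2.28 to 5.56 CPM in shIRF4 and at 7.63 to 13.4 CPM in control, while the interval at the lower gene end lies above 20 CPM in all 4 libraries.

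The fall at TLR7 was not shared by most intervals around it. Of the 31 intervals outside the group within 500 kb, 2 were lower and 3 higher, with a median log2 fold change of 0.20. These are 6.45% and 9.68%, against 15.5% and 7.26% of all tested intervals. On the whole of chromosome X, 11.1% of 1525 intervals were lower and the median was 0.06. TLR8, the neighbouring receptor for RNA fragments, had 1 interval, 23801 bp beyond its end (12946857 to 12947083). It lay at 3.37 and 2.18 CPM in shIRF4 and at 3.78 and 2.83 CPM in control. These groups overlapped, and at this low level the 95% confidence interval of the log2 fold change ran from -0.65 to 0.36.

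TLR9, the receptor for CpG DNA, lost accessibility at 2 of its 3 intervals, by smaller amounts. The gene lies on chromosome 3 at 52221080 to 52225645 on the minus strand. The interval that holds its start site and the promoter printed above (52224170 to 52227787) had the highest CPM of the whole group in all 4 libraries, with 95.9 and 74.6 CPM in shIRF4 and 105 and 106 CPM in control. Both shIRF4 libraries were below the control libraries, and they differed from each other far more than the control libraries did. The log2 fold change was -0.29 (SE 0.08, 95% confidence interval -0.45 to -0.13, adjusted p = 0.00825, edgeR). Its size rests on shIRF4 replicate 2: it was -0.14 without that library (adjusted p = 0.0356) and -0.49 without shIRF4 replicate 1, and DESeq2 did not call it (-0.29, adjusted p = 0.199).

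In the TLR9 body, 2984 bp from the start site (52221582 to 52222661), the level was 7.65 and 6.98 CPM in shIRF4 and 9.40 and 10.1 CPM in control. The groups did not overlap, but the call was marginal (log2 -0.40, SE 0.14, adjusted p = 0.0441, edgeR) and was lost without any 1 of the 4 libraries (adjusted p = 0.0714 to 0.292), and in DESeq2 (adjusted p = 0.475). Around the far end of the gene (52220133 to 52221231), all 4 libraries lay close together, with 13.5 and 13.5 CPM in shIRF4 and 13.3 and 13.5 CPM in control (log2 0.01, 95% confidence interval -0.22 to 0.24). Of 60 intervals outside the group within 500 kb, 5 were lower and 2 higher, with a median of 0.05. These are 8.33% and 3.33%, against 15.5% and 7.26% of all tested intervals.

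**Figure D3:**
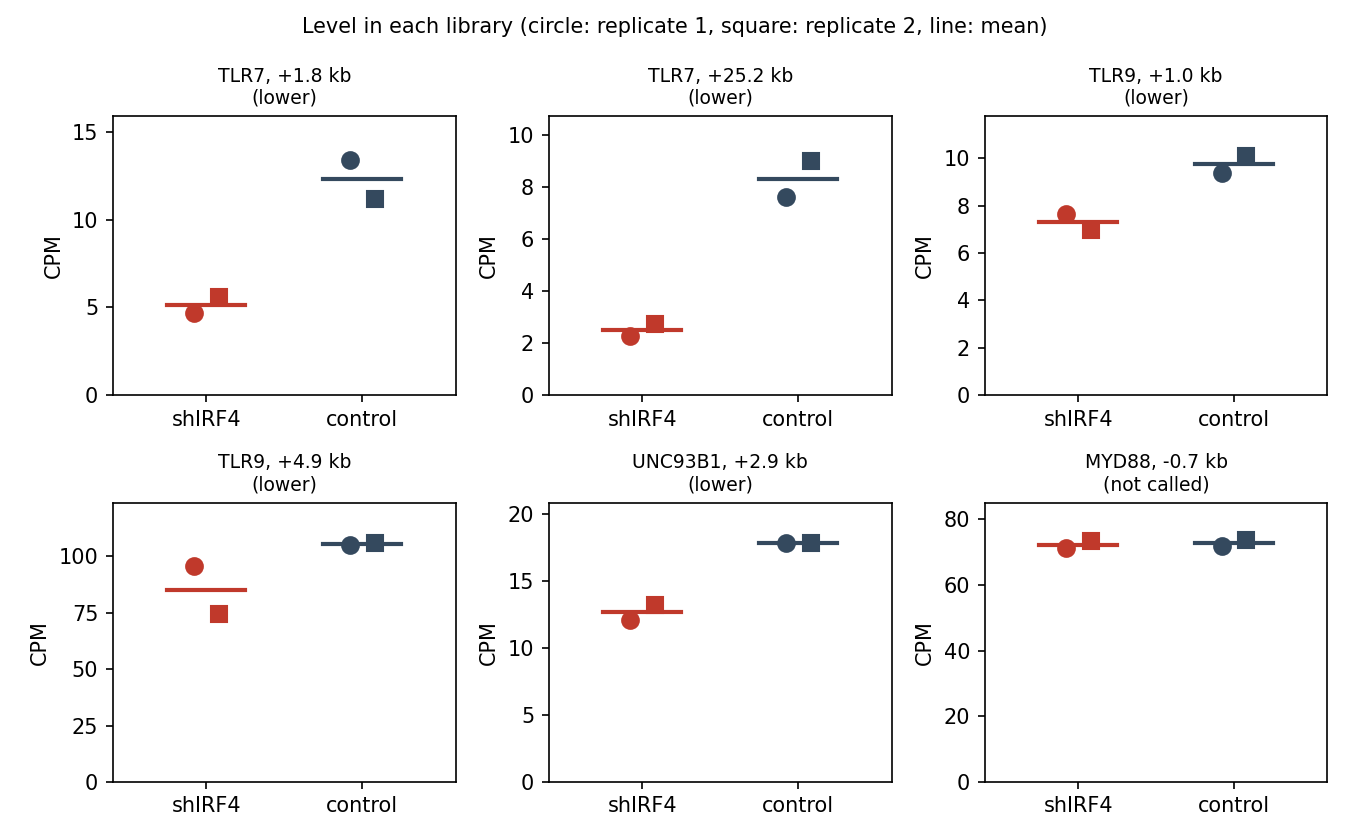
Level in CPM (y axis, from 0) of the 5 intervals called lower and of the MYD88 interval in each library, with shIRF4 left and control right, circles for replicate 1, squares for replicate 2 and a line at the mean. The groups are separate in the 5 called intervals, which were chosen by their calls in these same libraries, so the separation adds no support. At MYD88 all 4 libraries lie between 71.2 and 73.7 CPM.

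UNC93B1, the escort of the endosomal receptors, lies on chromosome 11 at 67991100 to 68004097 and held 5 intervals. One in the gene body (67993576 to 67994361) was lower, with 12.1 and 13.2 CPM in shIRF4 and 17.8 and 17.8 CPM in control (log2 -0.51, SE 0.11, 95% confidence interval -0.73 to -0.28, adjusted p = 0.00137, edgeR). The groups did not overlap. The call held with any 1 library left out and was lost in DESeq2 (adjusted p = 0.120). A body interval near the upper end (68001771 to 68002313) had 4.02 and 4.25 CPM in shIRF4 and 6.04 and 5.21 CPM in control, and did not pass although the groups were separate (log2 -0.45, adjusted p = 0.0886, edgeR).

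The most accessible UNC93B1 interval, at the upper gene end (68002473 to 68004506), lay at 40.7 and 35.8 CPM in shIRF4 and at 42.1 and 42.8 CPM in control (log2 -0.14, 95% confidence interval -0.30 to 0.02). The interval at the lower gene end (67990705 to 67991334) had 4.94 and 6.98 CPM in shIRF4 and 5.03 and 4.46 CPM in control, a difference that did not pass (log2 0.26, adjusted p = 0.378, edgeR) and rested on shIRF4 replicate 2, with 0.06 without that library and 0.57 without shIRF4 replicate 1. The remaining body interval (67996570 to 67998534) had 24.6 and 28.8 CPM in shIRF4 and 27.9 and 25.9 CPM in control. The groups overlapped at the lower gene end and at the remaining body interval, and not at the upper gene end.

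Reads at UNC93B1 may be shared with copies of the gene. The RefSeq table lists 7 UNC93B pseudogenes, and each held 1 interval. All 7 had a negative log2 fold change, from -0.92 to -0.18, and 2 were called lower (UNC93B4 and UNC93B7). Of all 73028 tested intervals, 35541 had a negative log2 fold change and 15.5% were lower. Because copies may share reads, the 7 may not be separate observations. UNC93B7 averaged 9.74 CPM in shIRF4 and 14.4 CPM in control (log2 -0.60, adjusted p = 0.00112, edgeR). Per the file headers, counting of multi-mapping reads with fractions was requested, yet 0 counts were non-integer, so how reads that match several copies were counted is not known. The part of the copies in the UNC93B1 value was not tested. Of 82 intervals outside the group within 500 kb, 14 were lower (17.1%, against 15.5% of all intervals) and 4 higher, with a median of -0.08.

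MYD88, the adaptor, had 1 interval, which holds its start site and the promoter with the interferon response core (chromosome 3, 38136526 to 38139481). It lay at 71.2 and 73.3 CPM in shIRF4 and at 71.9 and 73.7 CPM in control. The groups overlapped and the estimate was tight (log2 -0.01, SE 0.06, 95% confidence interval -0.14 to 0.11, adjusted p = 0.904, edgeR). The interval also holds an end of ACAA1, a gene of peroxisomal fatty acid oxidation, so it is not MYD88's alone. Of 31 intervals outside the group within 500 kb, 2 were lower and 0 higher, with a median of 0.05. These are 6.45% and 0%, against 15.5% and 7.26% of all tested intervals.

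The kinase genes had no called interval. IRAK4, the kinase that first joins MYD88, had a start-site interval on chromosome 12 (43758282 to 43759795) with 36.0 and 32.3 CPM in shIRF4 and 32.2 and 34.6 CPM in control (log2 0.04, 95% confidence interval -0.13 to 0.21). That interval also holds an end of PUS7L, a pseudouridine synthase gene. Its intragenic interval (43776610 to 43776787) had 2.61 and 3.05 CPM in shIRF4 and 2.60 and 3.05 CPM in control. IRAK1, which IRAK4 phosphorylates, had a start-site interval on chromosome X (154019500 to 154020661) with 17.8 and 14.9 CPM in shIRF4 and 15.4 and 16.1 CPM in control (log2 0.08, 95% confidence interval -0.15 to 0.31). Its intragenic interval (154013683 to 154014079) had 5.32 and 5.35 CPM in shIRF4 and 5.70 and 5.80 CPM in control (log2 -0.11, 95% confidence interval -0.47 to 0.24). Groups overlapped at the first 3 of these intervals and not at the last, where the gap was small against the confidence interval. Over MYD88, IRAK4 and IRAK1 the number called was 0 of 5, with 0 at an unadjusted p below 0.05 and 0 in DESeq2. Of all tested intervals 22.8% were called, and 5 intervals are too few to set these genes apart from that share.

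The surface receptor genes TLR10, TLR1 and TLR6 stand side by side on chromosome 4, from 38772238 to 38868390. None of their 8 intervals was called (0 at an unadjusted p below 0.05 and 0 in DESeq2). With 22.8% of all tested intervals called, 8 intervals are few for reading a difference from that share. TLR10, a receptor of human B cells without a settled ligand, held 4. The highest of the 8 intervals in CPM lay 10557 bp beyond the lower end of TLR10 (38761430 to 38761933), with 12.6 and 11.6 CPM in shIRF4 and 11.2 and 9.75 CPM in control. The groups did not overlap, with shIRF4 higher, but the difference did not pass (log2 0.23, SE 0.13, 95% confidence interval -0.03 to 0.49, adjusted p = 0.210, edgeR). At the upper end of TLR10 (38782867 to 38783285) the 4 libraries lay together, at 6.13 and 6.11 CPM in shIRF4 and 6.04 and 6.32 CPM in control. A body interval (38781251 to 38781574) had 3.53 and 3.82 CPM in shIRF4 and 2.35 and 3.87 CPM in control, and one 12515 bp beyond the lower end had 2.99 and 2.07 CPM in shIRF4 and 2.43 and 2.38 CPM in control. Both overlapped between the groups.

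TLR1 and TLR6 each had 2 intervals, at 2.62 to 7.76 CPM in shIRF4 and 3.19 to 7.29 CPM in control. At the upper end of TLR1 (38805627 to 38805944) there were 4.13 and 4.25 CPM in shIRF4 and 4.95 and 4.02 CPM in control (log2 -0.10, 95% confidence interval -0.51 to 0.31). The interval 1405 bp beyond its lower end (38786006 to 38786323) had 3.47 and 2.62 CPM in shIRF4 and 4.87 and 3.57 CPM in control (log2 -0.40, 95% confidence interval -0.86 to 0.07, adjusted p = 0.223, edgeR). The groups did not overlap there, and the estimate was -0.17 without control replicate 1 and -0.66 without shIRF4 replicate 1. In the TLR6 body, 4130 bp from the listed start site (38860947 to 38861137), there were 2.93 and 2.73 CPM in shIRF4 and 3.19 and 3.42 CPM in control (log2 -0.21, 95% confidence interval -0.67 to 0.25). The other TLR6 interval (38867435 to 38868160) lies 10618 bp from the listed start site. Its midpoint is in the TLR6 body, within 1 kb of the upper gene end, where this minus-strand gene begins. The nearest gene end is that of FAM114A1. This interval had 7.76 and 6.76 CPM in shIRF4 and 5.96 and 7.29 CPM in control. TLR1, TLR6 and TLR10 are related in sequence, and how well their reads were told apart was not tested.

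Counts summed over all intervals of a gene give 1 value per gene, scaled over the assigned intervals only and so not the sum of the CPM values above. TLR7 fell to 42.7 and 41.3 CPM in shIRF4, against 62.8 and 59.8 CPM in control (log2 -0.54, SE 0.06, adjusted p = 1.44e-05, edgeR). TLR9 lay at 129 and 105 CPM in shIRF4 and at 142 and 144 CPM in control (log2 -0.28, SE 0.07, adjusted p = 0.00847, edgeR). UNC93B1 lay at 94.9 and 98.3 CPM in shIRF4 and at 110 and 107 CPM in control (log2 -0.17, SE 0.05, adjusted p = 0.0200, edgeR). None of these 3 pairs of groups overlapped, but those of TLR1 and TLR10, which were not called, did not overlap either. The 3 of 10 genes were lower and 0 higher, where 13.4% of 16121 genes were lower and 6.73% higher. At an unadjusted p below 0.05, 3 were lower and 0 higher. DESeq2 called TLR7 lower, none of the other 9, and 0 higher, with TLR9 at adjusted p = 0.0600, and UNC93B1 at adjusted p = 0.356. The UNC93B1 call was also lost with totals-only scaling (adjusted p = 0.0861, edgeR), with the control libraries counted as 1 sample (0.103), and without either control library or shIRF4 replicate 1 (0.0707 to 0.195), which left 2 genes lower in each of these fits. The TLR9 call held in all of these edgeR fits, but its log2 fold change was -0.16 without shIRF4 replicate 2 and -0.45 without shIRF4 replicate 1.

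Of the 7 genes not called on the summed counts, MYD88 and IRAK4 had the narrowest confidence intervals (log2 -0.14 to 0.08 and -0.12 to 0.17). TLR10 had the highest estimate, with 27.7 and 26 CPM in shIRF4 and 24.5 and 24.8 CPM in control, groups that did not overlap (log2 0.13, 95% confidence interval -0.04 to 0.31). TLR8, with 1 weak interval, had the widest (-0.67 to 0.35). TLR1 (-0.58 to 0.07), TLR6 (-0.25 to 0.30) and IRAK1 (-0.17 to 0.20) lay between these.

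**Figure D4:**
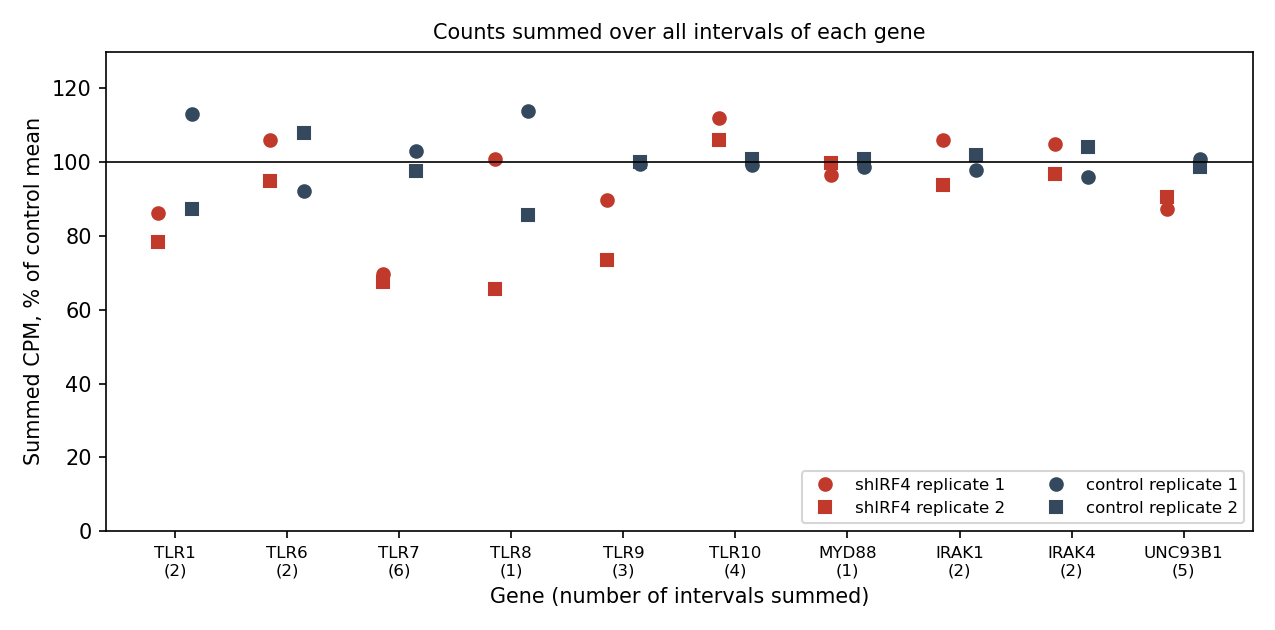
CPM summed over all intervals of each gene, as a percentage of the control mean (y axis, from 0), in each library, with the number of intervals under the gene name; shIRF4 is red and left, control dark blue and right. TLR7 lies at 69.6% and 67.4% in shIRF4, TLR9 at 89.8% and 73.4%, and MYD88 at 96.5% and 99.9%.

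The wider pathway, a list of 43 other genes of which 41 held 246 intervals, had 47 lower and 22 higher intervals (19.1% and 8.94%, against 15.5% and 7.26% of all intervals), with a median log2 fold change of -0.04. Intervals at genes whose proteins serve the endosomal receptors changed in both directions, 9 of 31 lower and 5 higher. SLC15A4, an endolysosomal transporter needed for TLR7 and TLR9 signalling, had 3 lower and 4 higher among 15 intervals. One 6303 bp outside it averaged 36.2 ± 1.01 CPM in shIRF4 and 56.6 ± 2.67 CPM in control (SD, n = 2 each, log2 -0.65, SE 0.07), and one in its body averaged 33.9 ± 3.54 CPM in shIRF4 and 23.9 ± 0.478 CPM in control (log2 0.52, SE 0.09). TASL, its partner adaptor, had 1 of 3 higher (log2 0.68). At AP3B1, a subunit of the adaptor complex that sorts these receptors, 4 of 9 were lower, and at HSP90B1, a chaperone of Toll-like receptors, 2 of 4. Those of smallest p were at -1.82, 71614 bp outside AP3B1, and at -1.40, 2005 bp outside HSP90B1. CNPY3, a chaperone, and IKBKG, an IKK subunit, held no interval.

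Among other receptors and co-receptors, 5 of 53 intervals were lower and 5 higher (9.43% each, against 15.5% and 7.26% of all intervals). Falls lay in CD36 (log2 -1.15) and 51529 bp from TLR4 (-1.50). Rises lay 7746 bp from CD180 (0.61) and at an end of LY96 (0.42). CD180 had 1 lower and 1 higher of 9 intervals, and LY96 had 1 lower and 2 higher of 5. The co-receptor gene LY86 had 1 lower (-0.45, 1567 bp outside it) and 1 higher (0.98, 94358 bp outside) of 16. TLR2, the partner of TLR1 and TLR6, had 1 interval, which was not called. Among further adaptors and kinases, 5 of 39 were lower and 4 higher. PIK3AP1, which links these receptors to PI3 kinase, had 3 of each among 21. Those of smallest p were at -0.82, 27694 bp outside the gene, and at 1.17, in its body. IRAK2 had 1 of each (-1.03 and 1.13, both in its body). TICAM2, an adaptor of TLR4, fell at a gene end (-0.36), and the 3 intervals of BTK were not called.

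In the ubiquitin ligase, TAK1 and IKK module, 11 of 49 were lower and 3 higher (22.4% and 6.12%, against 15.5% and 7.26% of all intervals). TRAF3, a ubiquitin ligase of this pathway, accounted for 8 of the lower ones among its 16 intervals. Its body interval of smallest p averaged 38.1 ± 0.591 CPM in shIRF4 and 69.1 ± 2.47 CPM in control (SD, n = 2 each, log2 -0.86, SE 0.07, adjusted p = 6.95e-09, edgeR). TAB2 (-0.70, in its body) and TAB3 (-1.45, 12314 bp outside it) also had falls. TAB1 (0.32, 9546 bp outside) and IKBKB (0.82, 25179 bp outside) had rises, while the only TRAF6 interval was not called. Of 28 intervals at transcription factor genes, 4 were lower and 1 higher (14.3% and 3.57%, against the same 15.5% and 7.26%). NFKBIZ (-0.42, 75784 bp outside it) and IRF5 (-0.74, 1966 bp outside) had falls, at 3 of 14 and 1 of 4 intervals. IRF1 had a rise (0.38, 5673 bp outside), and the single IRF7 interval was not called. Among negative regulators 13 of 46 were lower and 4 higher (28.3% and 8.70%). TNFAIP3 and PELI1 held 7 of 12 and 4 of 13 lower intervals. Those of smallest p were at -2.26, 38708 bp outside TNFAIP3, and at -0.70, 5970 bp outside PELI1. IRAK3, an inhibitory kinase relative, had a fall (-0.64) and a rise (0.61), both in its body. SARM1 (0.33, at its start site) and NFKBIA (0.39, 33658 bp outside it) had rises.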

How the data were processed

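The authors deposited unnormalised counts of reads over a common peak set, from featureCounts 2.0.0 per the file headers, which record 5′ ends, no duplicates, and a request for multi-mapping reads with fractions (all counts were whole). Per the submitters' processing notes the build was hg38. The aligner and peak caller are not given in the sources used here. Duplicate removal can cap dense intervals, more so in deeper libraries. Titles say shIRF4 while library names say siIRF4, and the titles were followed.

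Counts of all 4 libraries were fitted with edgeR 4.0.16 in R 4.3.3 (filterByExpr, which removed 107 of 73135 intervals and none of the group, TMM factors 0.981 to 1.03, glmQLFit with group as the only term, two-sided). SE is the size of the log2 fold change divided by the square root of F. Alternatives were DESeq2 1.42.0, scaling by totals, no filter, a replicate block, the control libraries as 1 sample, other assignment rules and each library left out. The fit was tested on simulated data. Gene positions and promoters came from RefSeq tables of GRCh38.p14. Between the shIRF4 libraries the chi-square statistic divided by its degrees of freedom was 2.01, and between the control libraries 1.04, close to sampling noise; both were kept. Gene-end means an interval midpoint at most 1 kb from a protein-coding gene's start or end.

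All intervals of the group are given. In the wider list, up to 3 falling and 3 rising genes per role are named, with each gene's interval of smallest p, besides counts per gene and single intervals named after their values were seen (TLR2, BTK, TRAF6, IRF7). The genes and lists were chosen with earlier results of these data known. One marker list is not reported here.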

Additional observations from a re-analysis of the deposited data

How the results depend on the processing

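Of the 5 lower intervals, 4 stayed called with totals-only scaling, with the replicate block, with the control libraries counted as 1 sample and without any 1 library, and the interval lost was each time that in the TLR9 body (adjusted p = 0.0790, 0.0501 and 0.0962 in the 3 fits of 4 libraries). With DESeq2, 2 of the 5 were called, both at TLR7, and 1 gene on summed counts, TLR7, in place of 3. DESeq2 called 3710 lower and 856 higher intervals across the genome, and 24 lower and 2 higher in the pathway list. The cause was not tested. Leaving out 1 library gave 6405 to 13155 lower and 2638 to 6842 higher intervals across the genome, and 36 to 49 lower and 8 to 29 higher in the pathway list. Assigning intervals within 50 kb or to the nearest gene end left 28 and 27 intervals in the group, 5 of them lower in each case. The pathway list then held 222 and 252 intervals, with 39 and 49 lower and 21 and 22 higher. With the main rule it held 246, with 47 lower and 22 higher.

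The signs of uncalled estimates near 0 depended on the scaling. With library totals alone they turned to 0.02 (UNC93B1 at 67996570, and MYD88 summed), 0.01 (IRAK4 at 43776610), 0.03 (MYD88) and 0.03 (TLR10 at 38782867). With the replicate block, IRAK4 at 43776610 turned to 2.4e-03. With 1 library left out in turn, the signs of these uncalled estimates changed within the ranges -0.13 to 0.11 (UNC93B1 at 67996570), -0.04 to 0.11 and -0.14 to 0.12 (IRAK4 at 43758282 and 43776610), -0.04 to 0.02 (MYD88), -1.9e-03 to 0.03 (TLR9 at 52220133), -0.20 to 0.31, -0.09 to 0.63 and -0.05 to 0.02 (TLR10 at 38759627, 38781251 and 38782867), -0.25 to 0.05 (TLR1 at 38805627), -0.45 to 0.09 and -0.01 to 0.20 (TLR7 at 12867893 and 12894131), -0.57 to 0.06 (TLR8) and -0.07 to 0.17 (IRAK1 at 154019500). Summed per gene the ranges were -0.08 to 0.15 (TLR6), -0.59 to 0.04 (TLR8), -0.10 to 0.08 (IRAK1) and -0.05 to 0.08 (IRAK4). Deviations of same-numbered libraries were nearly uncorrelated (-0.0263). This cannot tell whether libraries were paired, because the control libraries differed by little more than sampling noise. Of the group's calls, the replicate block ended that in the TLR9 body. Depth limits the weaker intervals: the median half-width of the 95% confidence interval was 0.46 on the log2 scale for the 15 intervals below the median abundance and 0.22 for the other 13.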
